A study of Mus musculus with 2208 samples.

Results

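The 10 genes described here carry the colony stimulating factor (CSF) and transforming growth factor beta (TGF-beta) signals that microglia, the resident macrophages of the brain, depend on. They were taken by symbol from the deposited expression table and are 10 of its 23951 genes. They comprise the ligand Csf1, the receptors Csf1r, Csf2ra, Csf2rb and Csf3r, the ligand Tgfb1, the receptors Tgfbr1 and Tgfbr2, and the signal transducer Smad3 with its inhibitor Smad7. All 10 passed the filter on low values and were among the 9435 genes tested.

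As background, Csf1r is the receptor tyrosine kinase for Csf1 and for interleukin 34 (Il34), and microglia die when it is blocked or lost. Csf2ra and Csf2rb together form the receptor for granulocyte-macrophage CSF (Csf2), and Csf3r is the receptor for granulocyte CSF (Csf3). In the TGF-beta pathway the ligand binds Tgfbr2, which activates the kinase Tgfbr1. Tgfbr1 in turn phosphorylates Smad2 and Smad3, and Smad7 is a feedback inhibitor of that step. TGF-beta signalling maintains the adult microglial expression programme, including genes such as P2ry12, Tmem119 and Sall1.

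The cells were single hippocampal cells sorted for the surface proteins CD11b and CD45, which mark microglia and other myeloid cells. CK-p25 mice (CKp25 in the labels) switch on p25, a cleaved and lasting form of the Cdk5 activator p35, in forebrain neurons under a CaMKII promoter, and neurodegeneration follows. CK littermates were the controls. The labels name no other allele or agent. Mice were taken before induction at an age of 3 months (0 weeks), 1 and 2 weeks later, and 6 weeks after induction at an age of 4 months and 2 weeks. There were 4 CKp25 mice at 6 weeks and 3 mice in each of the other groups, 25 mice in 8 groups. Because p25 is driven in neurons, the level of its source gene in sorted microglia does not check the labels.

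Values are FPKM as deposited by the authors, the number of sequenced fragments of a gene scaled to its transcript length in kilobases and to 1000000 mapped fragments. The level of a mouse is log2(FPKM + 1) averaged over its cells, and for low genes the added 1 makes changes look smaller than they are. A difference is CKp25 minus CK on that scale, ± its standard error, with a p-value from limma adjusted over the 9435 genes and a threshold of 0.05. Shares of cells are cells with FPKM of 1 or more, and means over mice are given ± SD. A value of 0 is only listed at 0, since 90.0% of all values were 0 and Gapdh, a gene that nearly every cell uses, was at 0 in 19.4% of the kept cells. Actb, another such gene, was at 0 in 0% of them.

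Of 2208 wells, 2028 held at least 1000 genes and were kept, with 231 to 267 cells in each CKp25 group and 182 to 284 in each CK group. FPKM keep no read counts, so the depth behind a value is unknown, and the submitters state only a median over cells of 251353 mapped reads. Median genes per kept cell averaged 2133, 2486, 2818.5 and 2187 in CKp25 mice at 0, 1, 2 and 6 weeks, and 2109, 2466, 2582 and 2113 in CK mice. In 19 of the 25 mice the well numbered first held over 8000 genes, and the sources used here do not say whether these wells hold single cells. C1qa and C1qb, from a list of 8 microglial markers, were found in at least 98.9% of the kept cells of every group on average over its mice. The levels of all 8 markers summed to 89.7, 82.7 and 79.3 in CKp25 mice at 1, 2 and 6 weeks. In CK mice they summed to 95.1, 91.9 and 87.1, so the list as a whole was lower in CKp25 mice. Cells with 3 or more markers of another cell type numbered 73 of 2028. Of the 6 T or NK cell markers, Cd3e and Nkg7 were found in no cell of any group, but some of the others were found in every group. The levels of the 6 summed to 0.366 in CKp25 and 0.396 in CK mice at 6 weeks, so the list does not show that such cells were absent.

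The genes lay far apart in level. Over the 12 CK mice Csf1r averaged 2055 FPKM ± 635, above every other member in every CK mouse. Tgfbr1 followed at 212 ± 42.1 FPKM, then Csf3r at 105 ± 38.9 and Tgfbr2 at 93.1 ± 25.7 FPKM. Smad3 averaged 25.8 ± 9.20, Csf2ra 24.2 ± 8.81, Csf2rb 15.4 ± 4.54 and Smad7 8.68 ± 1.66 FPKM. Tgfb1 at 5.53 ± 2.79 and Csf1 at 2.65 ± 1.63 FPKM were the lowest. Below Csf1r the ranges of all neighbours in this order overlapped. In CKp25 mice at 2 weeks Csf2ra had the fifth highest mean at 63.3 ± 11.7 FPKM and Csf1 the sixth at 25.8 ± 4.54 FPKM, and each stood apart from its neighbours over the 3 mice.

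Csf1 and Csf2ra rose in CKp25 mice, and the other 8 members did not pass the test. At 2 weeks 2 of 10 members were called higher and 0 lower, where 6.14% of all genes tested were called higher and 2.24% lower. At 6 weeks the same counts were 2 and 0, against 4.21% and 1.54% of all genes, and both times the members called were Csf1 and Csf2ra. At 1 week 0 members were called, where 3.9% of all genes were called higher and 0.392% lower. At an unadjusted p under 0.05 there were 2, 4 and 5 members at 1, 2 and 6 weeks, where 17.6%, 20.3% and 15.8% of all genes had one. Before induction, at 0 weeks, 0 members were called and 0 had an unadjusted p under 0.05. None of the 9435 genes was called at that time (0%), and 1.07% had an unadjusted p under 0.05.

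**Figure D1:**
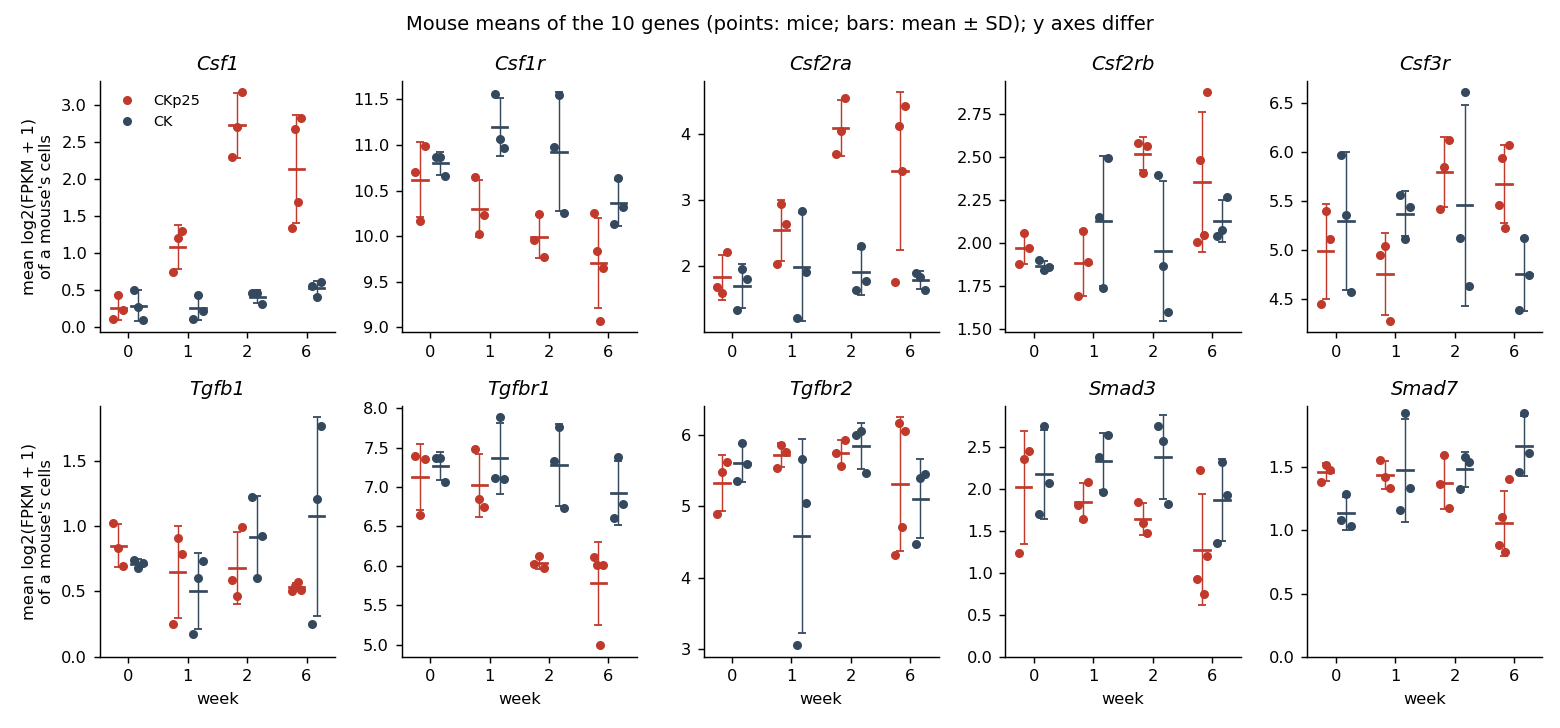
Mean log2(FPKM + 1) over the cells of each mouse (y axis, scales differ between panels) by week (x axis) for the 10 genes, CKp25 in red to the left of CK in blue-gray. Points are mice and bars are the mean ± SD of a group. Csf1 in CKp25 mice lay between 2.30 and 3.17 at 2 weeks, above the CK mice at 0.30 to 0.46, whereas Tgfbr1 in CKp25 mice lay between 5.97 and 6.12, below the CK mice at 6.74 to 7.76.

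**Figure D2:**
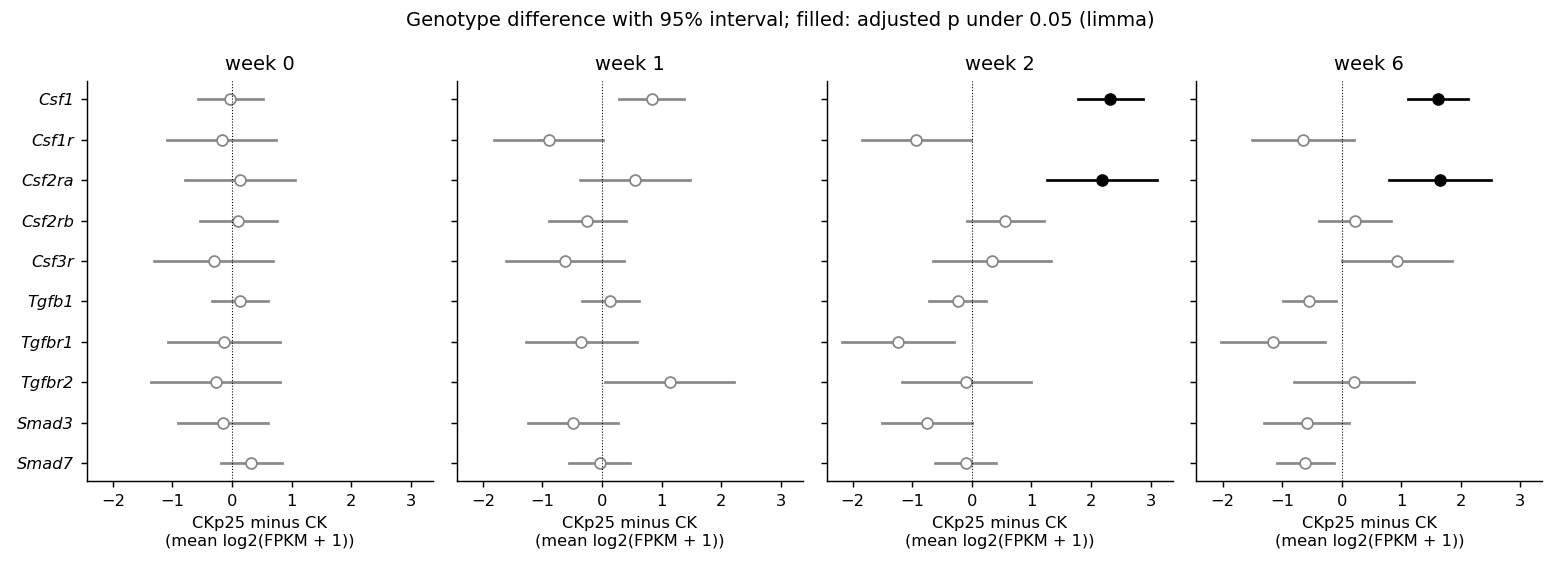
CKp25 minus CK difference of the mean log2(FPKM + 1) levels (x axis) with its 95% interval for each gene (y axis) at 0, 1, 2 and 6 weeks. Filled points passed the adjusted threshold of 0.05 in limma, which were Csf1 and Csf2ra at 2 and 6 weeks.

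Csf1 was the ligand that changed. Before induction its level was 0.10, 0.43 and 0.23 in the CKp25 mice and 0.50, 0.27 and 0.09 in the CK mice, which overlap. At 1 week the CKp25 mice were at 0.75, 1.20 and 1.29 and the CK mice at 0.11, 0.42 and 0.21. All CKp25 mice lay above all CK mice, and the difference of 0.83 ± 0.27 missed the threshold (adjusted p = 0.0700). At 2 weeks Csf1 was at 2.30, 2.70 and 3.17 in CKp25 mice and at 0.45, 0.46 and 0.30 in CK mice. The difference there was 2.32 ± 0.27 (adjusted p = 2.04e-08). At 6 weeks the CKp25 mice were at 1.34, 2.68, 1.69 and 2.83 and the CK mice at 0.55, 0.40 and 0.60, a difference of 1.62 ± 0.25 (adjusted p = 1.09e-05). The groups did not overlap at 1, 2 or 6 weeks, where 20.7%, 24.1% and 12.9% of all genes tested had no overlap in either direction.

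In FPKM, Csf1 averaged 13.4 ± 3.72, 25.8 ± 4.54 and 22.6 ± 9.79 in CKp25 mice at 1, 2 and 6 weeks, and 1.54 ± 0.752, 3.34 ± 1.46 and 3.69 ± 1.47 in CK mice. These are ratios of 8.72, 7.74 and 6.12. At 1, 2 and 6 weeks Csf1 was found in 22.7% ± 6.64, 54.7% ± 8.76 and 42.7% ± 15.0 of CKp25 cells, against 6.09% ± 4.12, 8.79% ± 1.46 and 11.7% ± 1.31 of CK cells. At 0 weeks the shares were 6.65% ± 4.89 and 6.55% ± 3.31. Among cells with Csf1 at 1 week, the median level was 27.1 ± 14.9 FPKM in CKp25 mice and 16.6 ± 0.103 FPKM in the 2 CK mice with at least 5 such cells. At 2 weeks the median level was 30.0 ± 5.17 FPKM in CKp25 mice and 28.0 ± 14.2 FPKM in CK mice. At 6 weeks it was 29.3 ± 5.64 and 23.2 ± 17.3 FPKM. Every CKp25 mouse had a higher share than every CK mouse at 1, 2 and 6 weeks. Exact permutation over the mice, 2-sided, gave p = 0.1 at 1 and 2 weeks and 0.0571 at 6 weeks, the smallest that 3 against 3 and 4 against 3 mice allow. Adjusted over the 40 shares compared, all of these were 0.610.

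The genotype effect on Csf1 also differed between weeks. The effect at 2 weeks exceeded that at 0 weeks by 2.35 ± 0.38 (adjusted p = 5.84e-05, interaction in limma) and that at 1 week by 1.49 ± 0.38 (adjusted p = 0.0236). Of all genes tested 2.63% and 1.71% were called in these interactions. The effect at 6 weeks exceeded that at 0 weeks by 1.65 ± 0.37 (adjusted p = 0.00683), where 1.8% of all genes were called. Between 6 and 2 weeks the change was -0.70 ± 0.37 (adjusted p = 0.922). Within CKp25 mice Csf1 rose over 0 weeks by 0.83 ± 0.27 at 1 week (adjusted p = 0.0428), by 2.47 ± 0.27 at 2 weeks (adjusted p = 3.84e-09) and by 1.88 ± 0.25 at 6 weeks (adjusted p = 5.98e-07). In these comparisons 9.68%, 12.5% and 7.02% of all genes were called in either direction. Within CK mice the differences from 0 weeks were -0.04, 0.12 and 0.23 at 1, 2 and 6 weeks, each ± 0.27, with an adjusted p of 0.979, 0.929 and 1. Comparisons with 0 weeks share the same 0-week mice. The excess of 2 weeks over 1 week missed the threshold in 5 of 25 fits that leave out a mouse, namely without CKp25 mouse 1, CK mouse 2 or CK mouse 3 of 1 week, or CKp25 mouse 3 or CK mouse 3 of 2 weeks (1.27 to 1.51). The rise within CKp25 mice at 1 week missed it in 7 such fits (0.72 to 0.92), namely without any CKp25 mouse of 0 weeks, CK mouse 2 or 3 of 0 weeks, or CKp25 mouse 2 or 3 of 1 week. With FPKM averaged within a mouse before the log2 was taken, the effect at 2 weeks exceeded that at 1 week by 0.17 (adjusted p = 0.999) and the calls against 0 weeks were not past the threshold (adjusted p = 0.0539 and 0.0955).

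Csf1r itself was found in 100% of the kept cells of every mouse, so every cell with Csf1 also had its receptor. Its level was 10.65, 10.03 and 10.23 in CKp25 mice at 1 week and 11.56, 11.06 and 10.96 in CK mice. At 2 weeks it was 9.96, 10.24 and 9.77 in CKp25 mice and 10.97, 11.55 and 10.25 in CK mice. At both times all CKp25 mice were lower, by a small margin at 2 weeks. At 6 weeks the CKp25 mice were at 10.26, 9.84, 9.07 and 9.65 and the CK mice at 10.13, 10.63 and 10.32, which overlap. From 0 to 6 weeks the 4 differences were -0.18 ± 0.45, -0.89 ± 0.45, -0.93 ± 0.45 and -0.66 ± 0.42. None passed the threshold (adjusted p = 1, 0.298, 0.236 and 0.496 in limma). In FPKM, Csf1r averaged 1444 ± 304 in CKp25 and 2598 ± 602 in CK mice at 1 week, and 1162 ± 174 and 2197 ± 914 at 2 weeks, ratios of 0.556 and 0.529. On the FPKM scale the groups overlapped at 2 weeks, with CKp25 mouse 2 at 1351 and CK mouse 3 at 1320. With the mouse profiles quantile normalized, Csf1r passed the threshold as lower at 2 weeks (-1.32, adjusted p = 0.00761) and 6 weeks (-1.23, adjusted p = 0.00781).

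Csf2ra, the ligand-binding chain of the Csf2 receptor, rose at 2 and 6 weeks. At 0 weeks its level was 1.69, 1.60 and 2.22 in CKp25 mice and 1.34, 1.96 and 1.81 in CK mice. At 1 week it was 2.04, 2.95 and 2.65 in CKp25 mice and 1.21, 2.83 and 1.92 in CK mice, and the groups overlapped (difference 0.55 ± 0.46, adjusted p = 0.582). At 2 weeks the CKp25 mice were at 3.70, 4.05 and 4.54 and the CK mice at 1.64, 2.31 and 1.78, with no overlap. The difference was 2.18 ± 0.46 (adjusted p = 0.000938). At 6 weeks the CKp25 mice were at 1.76, 4.12, 3.45 and 4.43 and the CK mice at 1.89, 1.84 and 1.64. Mouse 1 of the CKp25 mice, with 41 kept cells, lay among the CK mice and the other 3 above them, and the difference was 1.65 ± 0.43 (adjusted p = 0.0110). It was 2.21 without that mouse. It missed the threshold without CKp25 mouse 2 (1.42, adjusted p = 0.0578), without CKp25 mouse 4 (1.32, adjusted p = 0.0773) or without CK mouse 3 (1.57, adjusted p = 0.0584). It was also not past the threshold with FPKM averaged before the log2 was taken (0.91, adjusted p = 0.225) or with no filter on low genes (1.65, adjusted p = 0.0892).

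At 2 weeks 69.5% ± 7.46 of CKp25 cells held Csf2ra, against 37.6% ± 8.19 of CK cells, and at 6 weeks 59.8% ± 19.5 and 32.6% ± 1.27. Among cells with Csf2ra the median level at 2 weeks was 66.3 ± 12.7 FPKM in CKp25 and 34.6 ± 2.04 FPKM in CK mice, so that both the share of cells and the level in them were higher. The level in positive cells was already spread widely in CKp25 mice at 0 weeks, at 62.7 ± 33.2 FPKM against 41.8 ± 3.40 FPKM in CK mice. Within CKp25 mice Csf2ra rose over 0 weeks by 2.26 ± 0.46 at 2 weeks (adjusted p = 0.000408) and by 1.61 ± 0.43 at 6 weeks (adjusted p = 0.0120). The call at 6 weeks was lost in 4 of 25 fits that leave out a mouse, namely without CKp25 mouse 1 or 2 of 0 weeks or CKp25 mouse 2 or 4 of 6 weeks (1.28 to 1.53). The genotype effect at 2 weeks exceeded that at 0 weeks by 2.05 ± 0.65, which was not past the threshold (adjusted p = 0.0819). This excess passed in the fit with mouse weights (2.28, adjusted p = 0.00305), in that with the replicate block (2.05, adjusted p = 0.0213) and without CKp25 mouse 1 of 6 weeks (adjusted p = 0.0241). It missed the threshold in the other fits, so whether the effect on Csf2ra differed between these weeks depended on the fit.

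**Figure D3:**
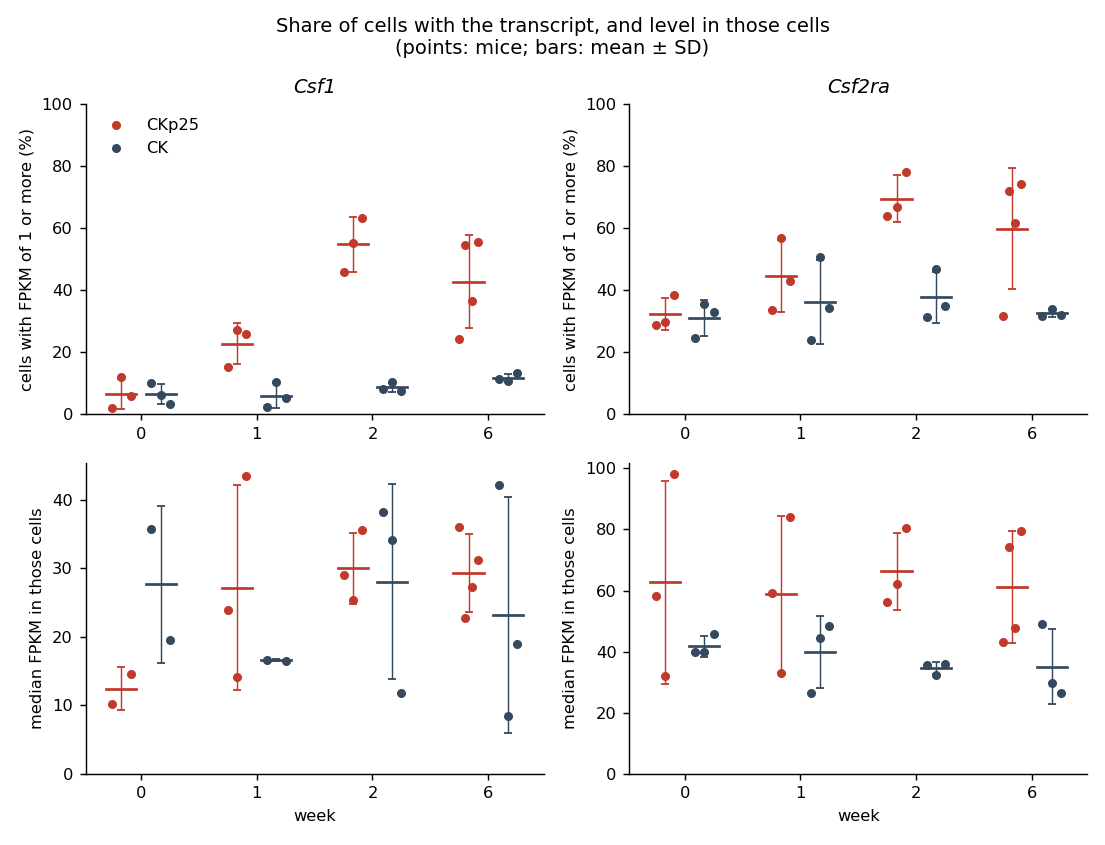
Share of cells with FPKM of 1 or more (upper row, %) and median FPKM in those cells (lower row) for Csf1 and Csf2ra by week (x axis), CKp25 in red to the left of CK in blue-gray. Points are mice, bars are mean ± SD, and mice with fewer than 5 positive cells have no median. The shares of Csf1 separate at 1, 2 and 6 weeks while its medians overlap at each of these weeks, and for Csf2ra at 2 weeks both separate.

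Csf2rb, the signalling chain shared by the receptors of Csf2, interleukin 3 and interleukin 5, did not pass the test. At 2 weeks its level was 2.58, 2.41 and 2.56 in CKp25 mice and 2.39, 1.87 and 1.60 in CK mice, with no overlap but a narrow gap. The difference was 0.56 ± 0.32 (adjusted p = 0.332), and at 0, 1 and 6 weeks it was 0.10, -0.24 and 0.22. Its near-identical neighbour Csf2rb2 was at 6.64 ± 1.47 FPKM in CKp25 and 6.40 ± 2.17 FPKM in CK mice at 2 weeks. The sources used here do not say how fragments were assigned between these copies, so both levels are uncertain. Cells with both Csf2ra and Csf2rb made up 46.9% ± 13.2 of CKp25 cells and 17.9% ± 6.25 of CK cells at 2 weeks. The products of the separate shares were 43.7% and 16.8%, so joint detection was close to what the separate shares give. Csf3r, a receptor also carried by neutrophils, was at 5.46, 5.94, 5.23 and 6.08 in CKp25 mice at 6 weeks and at 4.38, 5.13 and 4.74 in CK mice. All CKp25 mice were higher, and the difference of 0.93 ± 0.46 was not past the threshold (adjusted p = 0.319). At 1 week all CKp25 mice were lower (-0.61 ± 0.49, adjusted p = 0.566).

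The ligands of these receptors other than Csf1 were listed at 0 or below 1 FPKM in nearly all of the sorted cells, which in a file without read counts does not show that they are absent. Il34 was found in at most 0.347% of the cells of any group, Csf2 in at most 0.794%, Csf3 in at most 0.784% and interleukin 3 (Il3) in at most 0.397%. None of them entered the test.

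Markers of monocytes and dendritic cells, which can also carry Csf1 and Csf2ra, moved in the same weeks. The 8 monocyte markers summed to 2.49 (range 2.44 to 2.53) in CKp25 and 0.488 (0.200 to 0.894) in CK mice at 2 weeks, and to 1.82 (0.836 to 2.85) and 0.663 (0.387 to 0.930) at 6 weeks. The change at 2 weeks sat in Ms4a4c, found in 19.6% of CKp25 cells against 1.40% in CK, and Plac8, found in 14.0% and 1.07%. Ccr2, the chemokine receptor that defines inflammatory monocytes, was found in 8.56% and 6.40%, and Ly6c2 in 2.17% and 0%. The 6 dendritic cell markers summed to 2.85 (2.62 to 3.07) in CKp25 and 0.622 (0.489 to 0.732) in CK mice at 2 weeks, and to 3.03 (2.59 to 4.12) and 0.746 (0.666 to 0.805) at 6 weeks. Itgax, which activated microglia also express, was found in 47.7% and 6.05% at 2 weeks, and Clec9a and Cd209a in no CKp25 cell at that time. With every cell that held any monocyte marker left out, a setting chosen after the data were seen, Csf1 differed by 2.36 at 2 weeks (adjusted p = 2.50e-07) and 1.75 at 6 weeks (adjusted p = 2.61e-05). Csf2ra differed by 1.95 (adjusted p = 0.00506) and 2.00 (adjusted p = 0.00204) in the same cells. With the wells numbered first left out, Csf1 differed by 2.32 and 1.59 and Csf2ra by 2.18 and 1.68, each past the threshold. The part of monocytes, dendritic cells and border-associated macrophages in these differences was not tested.

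The stretches before the start sites of Csf1 and Csf2ra, the members that rose together, and of the paired receptors Tgfbr1 and Tgfbr2, of which Tgfbr1 alone was lower in every CKp25 mouse at 2 and 6 weeks, are shown for comparison. They are the 250 bases upstream of the RefSeq start on the coding strand in GRCm38.p6, a build other than the mm9 named for the expression values. Capitals mark GAGGAAG, a motif of PU.1, the transcription factor that sets up the macrophage lineage.
Csf1, chr3:107760470-107760719, minus strand: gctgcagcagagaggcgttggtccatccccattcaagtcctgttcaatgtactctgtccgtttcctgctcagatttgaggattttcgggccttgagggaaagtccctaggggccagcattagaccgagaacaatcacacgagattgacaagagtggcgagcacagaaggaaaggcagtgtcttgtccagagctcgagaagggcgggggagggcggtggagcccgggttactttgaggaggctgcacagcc
Csf2ra, chr19:61228419-61228668, minus strand: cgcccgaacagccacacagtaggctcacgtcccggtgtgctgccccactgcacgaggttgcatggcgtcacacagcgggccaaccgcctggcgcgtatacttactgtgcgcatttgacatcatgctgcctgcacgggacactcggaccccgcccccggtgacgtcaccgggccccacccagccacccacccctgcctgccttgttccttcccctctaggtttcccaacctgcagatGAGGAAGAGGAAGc
Tgfbr1, chr4:47352972-47353221, plus strand: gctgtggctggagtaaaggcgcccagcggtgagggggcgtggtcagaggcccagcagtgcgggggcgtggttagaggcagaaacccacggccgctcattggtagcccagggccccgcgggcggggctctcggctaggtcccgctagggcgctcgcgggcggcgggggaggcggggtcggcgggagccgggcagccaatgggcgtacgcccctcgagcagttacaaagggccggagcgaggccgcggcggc
Tgfbr2, chr9:116175364-116175613, minus strand: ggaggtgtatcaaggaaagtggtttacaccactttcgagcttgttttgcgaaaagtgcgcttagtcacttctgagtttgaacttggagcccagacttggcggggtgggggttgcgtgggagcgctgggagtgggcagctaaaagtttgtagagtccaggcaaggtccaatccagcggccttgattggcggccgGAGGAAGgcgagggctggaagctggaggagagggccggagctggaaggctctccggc
The Csf2ra stretch holds near its end 2 matches that share 1 base, at -14 and -8 from the start, and the Tgfbr2 stretch holds 1 at -57. The stretches of Csf1 and of this Tgfbr1 start hold none of the motifs searched. Of the 7 members searched, Csf3r also held GAGGAAG, at -86, as did a second annotated start of Tgfbr1, at -95, which also held CAGACA, a Smad motif, at -203. TGACTCA, the AP-1 motif, was in none of them. On either strand GAGGAAG is in 10.6% of the 32851 promoter stretches of the table, TGACTCA in 4.46% and CAGACA in 17.1%. A match is a description of the letters and not a site of binding. Csf1r, Csf2rb and Smad7 were not searched.

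No member of the TGF-beta axis was called between CKp25 and CK mice at any week, and Tgfbr1 came nearest. Tgfbr1, the kinase receptor, was at 6.02, 6.12 and 5.97 in CKp25 mice at 2 weeks and at 7.33, 7.76 and 6.74 in CK mice. At 6 weeks it was at 6.11, 6.00, 4.99 and 6.01 in CKp25 mice and at 6.61, 7.38 and 6.79 in CK mice. All CKp25 mice were lower at both times. The differences were -1.24 ± 0.46 at 2 weeks (95% interval -2.18 to -0.31, adjusted p = 0.0912) and -1.15 ± 0.43 at 6 weeks (-2.02 to -0.27, adjusted p = 0.128). At 0 and 1 weeks they were -0.14 ± 0.46 and -0.34 ± 0.46, with groups that overlapped. In FPKM Tgfbr1 averaged 107 ± 16.5 in CKp25 and 213 ± 59.9 in CK mice at 2 weeks, and 95.6 ± 25.3 and 192 ± 44.4 at 6 weeks, ratios of 0.502 and 0.499. At 2 weeks 95.1% ± 2.19 of CKp25 cells and 98.2% ± 1.28 of CK cells still held it, so the lower mean came with a lower level per cell, the median in positive cells being 86.6 ± 9.17 and 188 ± 46.8 FPKM.

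Within CKp25 mice Tgfbr1 fell by 1.35 ± 0.43 at 6 weeks against 0 weeks (adjusted p = 0.0470), the single member called lower in a comparison with 0 weeks. That call was lost in 16 of the 25 fits that leave out a mouse (adjusted p up to 0.187). The genotype effect at 2 weeks differed from that at 0 weeks by -1.10 ± 0.66 (adjusted p = 0.518), so a difference between weeks was not shown. Of 18 alternatives other than leaving out a mouse, 3 put the difference at 2 weeks past the threshold and 7 that at 6 weeks. Among them were quantile normalization (-1.74, adjusted p = 0.000388, at 2 weeks and -1.53, adjusted p = 0.000776, at 6 weeks) and genes per cell as a covariate (-1.41, adjusted p = 0.0206, and -1.20, adjusted p = 0.0408).

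Tgfbr2, the receptor that binds the ligand, was not called at any week. Its level at 2 weeks was 5.75, 5.57 and 5.93 in CKp25 mice and 6.00, 6.06 and 5.47 in CK mice, a difference of -0.09 ± 0.53 with a 95% interval of -1.17 to 0.99. At 6 weeks the difference was 0.20 ± 0.50 (-0.81 to 1.21). Both intervals include changes of either sign. At 1 week the CKp25 mice were at 5.53, 5.86 and 5.76 and the CK mice at 3.05, 5.66 and 5.04, and 1 CK mouse lay far below the rest. The difference of 1.14 ± 0.53 (adjusted p = 0.253) was 0.37 without that CK mouse. Cells with both receptors made up 89.4% ± 1.80 of CKp25 cells and 90.1% ± 2.91 of CK cells at 2 weeks.

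The ligand Tgfb1 was low and did not pass the test. Its level at 6 weeks was 0.50, 0.54, 0.57 and 0.51 in CKp25 mice and 0.25, 1.21 and 1.76 in CK mice. The CKp25 mice lay close together inside the wide range of the CK mice, and the difference was -0.54 ± 0.22 (adjusted p = 0.175). It was -0.95 (adjusted p = 0.00368) without CK mouse 1 and -0.20 (adjusted p = 0.768) without CK mouse 3, so 1 CK mouse decides this value. At 6 weeks 13.9% ± 2.82 of CKp25 cells held Tgfb1, against 24.7% ± 17.5 of CK cells, and at 2 weeks 19.4% ± 9.93 and 20.5% ± 5.12.

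Smad3, which carries the signal to the nucleus, was lower on average in CKp25 mice at each week without passing the test. At 2 weeks it was at 1.85, 1.59 and 1.47 in CKp25 mice and at 2.76, 2.57 and 1.82 in CK mice, which overlap narrowly. The differences were -0.16, -0.49, -0.75 and -0.59 at 0, 1, 2 and 6 weeks, with an adjusted p of 1, 0.542, 0.255 and 0.445. In FPKM Smad3 averaged 10.9 ± 3.93 in CKp25 and 25.7 ± 9.85 in CK mice at 2 weeks, a ratio of 0.425, while the share of cells was 38.8% ± 0.752 and 46.7% ± 7.58. Smad7 stood at 0.88, 1.10, 0.83 and 1.40 in CKp25 mice at 6 weeks and at 1.46, 1.93 and 1.61 in CK mice. All CKp25 mice were lower, and the difference of -0.61 ± 0.24 missed the threshold (adjusted p = 0.144). At 0 weeks all CKp25 mice were higher (0.32 ± 0.25, adjusted p = 1), and the difference of the effects between 6 and 0 weeks was -0.94 ± 0.35 (adjusted p = 0.239).

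Counted over all members, the groups did not overlap for 1 member at 0 weeks (Smad7), 3 at 1 week, 5 at 2 weeks and 4 at 6 weeks. Of all genes tested 7.51%, 20.7%, 24.1% and 12.9% had no overlap at these weeks. The members with all CKp25 mice higher were Csf1 at 1 week, Csf1, Csf2ra and Csf2rb at 2 weeks, and Csf1 and Csf3r at 6 weeks. Those with all CKp25 mice lower were Csf1r and Csf3r at 1 week, Csf1r and Tgfbr1 at 2 weeks, and Tgfbr1 and Smad7 at 6 weeks.

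Within CKp25 mice the members were also compared between cells with and without Cst7, a cystatin gene that marks activated microglia. Its share at 1, 2 and 6 weeks was 24.7%, 71.9% and 62.4% of CKp25 cells, and 2.14%, 5.71% and 10.5% of CK cells. Csf1 was found in 41.2% ± 6.78 of cells with Cst7 and 16.5% ± 4.74 of cells without at 1 week, in 61.7% ± 8.67 and 35.8% ± 13.7 at 2 weeks, and in 51.0% ± 16.8 and 32.7% ± 19.0 at 6 weeks. Its level was higher in cells with Cst7 in all 3, 3 and 4 mice. Among all CK cells, with or without Cst7, the share with Csf1 was 8.79% at 2 weeks and 11.7% at 6 weeks. Csf2ra was found in 78.5% ± 7.51 and 33.3% ± 7.54 at 1 week and in 76.5% ± 6.80 and 52.5% ± 12.3 at 2 weeks. At 6 weeks the shares were close, at 60.6% ± 21.1 and 57.4% ± 16.4. Csf1r was lower in cells with Cst7 in all 3 mice at 1 week (mean difference -0.37 ± 0.15) and differed by 0.01 ± 0.27 and -0.01 ± 0.36 at 2 and 6 weeks. Tgfbr1 differed by -0.51 ± 0.84, 0.14 ± 0.74 and 0.51 ± 0.70, with mice on both sides of 0 at each week. Csf2rb was higher with Cst7 in every mouse at 1 and 2 weeks (1.01 ± 0.04 and 0.57 ± 0.37). So were Csf3r at 2 and 6 weeks (0.90 ± 0.65 and 1.37 ± 1.15) and Tgfbr2 at 2 weeks (0.92 ± 0.57). Smad7 was so at 1 and 6 weeks (0.14 ± 0.10 and 0.55 ± 0.39). At their other weeks these members had mice on both sides of 0, as had Tgfb1 and Smad3 at each week. Cells with Cst7 also held more genes, by a mean of 1497, 553 and 467 genes per cell at 1, 2 and 6 weeks, and the part of this in the shares was not tested.

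**Figure D4:**
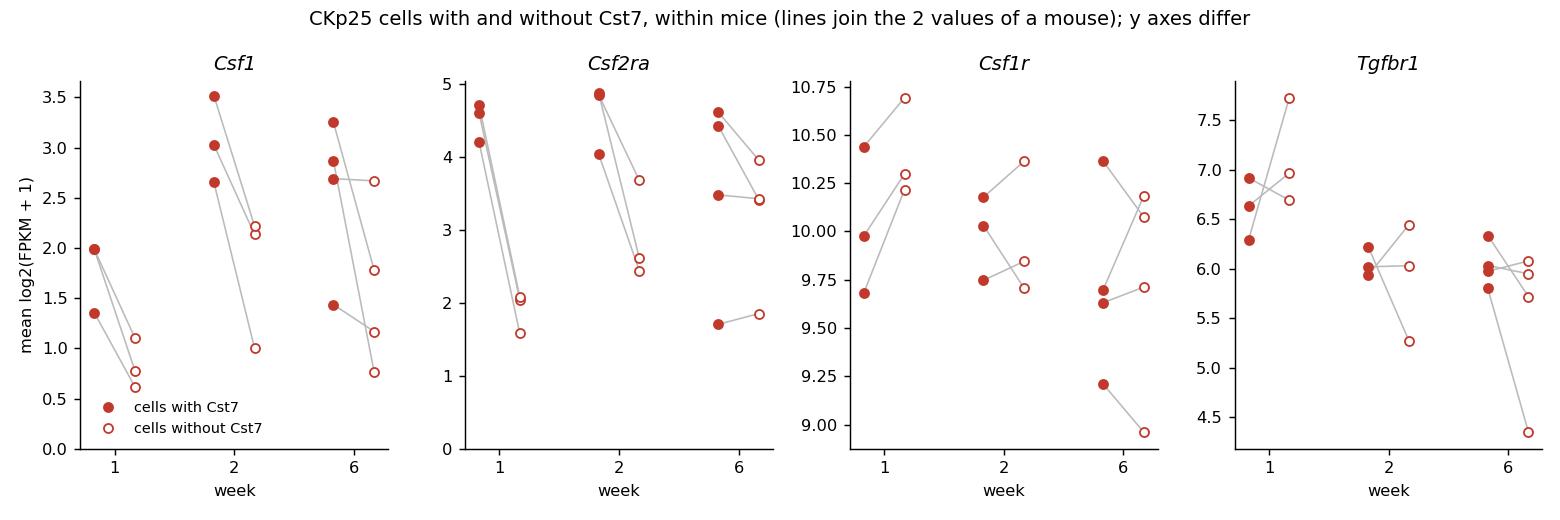
Mean log2(FPKM + 1) (y axis, scales differ) of Csf1, Csf2ra, Csf1r and Tgfbr1 in cells of CKp25 mice with Cst7 (filled) and without Cst7 (open) at 1, 2 and 6 weeks (x axis), lines joining the values of a mouse. Csf1 is higher with Cst7 in every mouse shown, though by only 0.02 in mouse 2 of 6 weeks, and Tgfbr1 goes both ways at each week.

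The genes whose level was most like that of each member over the 25 mice were named by Pearson r, as a description of mice that share groups and libraries. Csf1 was closest to Il2rg (r = 0.971), the common chain of several interleukin receptors, Sdc3 (0.966) and Fgl2 (0.950). Csf2ra was closest to Ank (0.934), Csf1 (0.923) and Scpep1 (0.902). Csf1r was closest to 4632428N05Rik (0.924) and Ggt5 (0.920). Tgfbr1 was closest to Ivns1abp (0.926), the microglial receptor Gpr34 (0.925) and Cmtm6 (0.920). Of the remaining members, Smad3 had Zfp157 (0.860), Tgfbr2 had Rpl13 (0.849), Csf2rb had H2-Q4 (0.788), Csf3r had Psme2b (0.772), Smad7 had Wipi2 (0.767) and Tgfb1 had Senp7 (0.762) as the closest gene.

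Among other genes of the CSF pathway, 3 of signalling passed the test at 2 weeks and 1 transcription factor at 1 week. Of 29 tested genes of CSF receptor signalling, 0 were called at 1 and 6 weeks, and 1 rose and 2 fell at 2 weeks, where 6.14% of all genes tested were called higher and 2.24% lower. Their median difference at 2 weeks was -0.00, as over all genes. Fyn, a Src family kinase, rose by 0.46 ± 0.08 (adjusted p = 4.41e-05). Pik3cg, a catalytic subunit of phosphoinositide 3-kinase, differed by -1.78 ± 0.43 (adjusted p = 0.00432), at 16.8 FPKM in CKp25 and 47.1 FPKM in CK mice. Dusp6, a phosphatase that limits ERK signalling and is itself induced by it, differed by -2.40 ± 0.61 (adjusted p = 0.00699), at 71.5 and 228 FPKM, and missed the threshold without CK mouse 2 (adjusted p = 0.0568). Tyrobp, the signalling adaptor with the highest level of the list, was at 2757 ± 464 FPKM in CKp25 and 1733 ± 218 FPKM in CK mice at 2 weeks and was not called (0.82 ± 0.50, adjusted p = 0.383). Of 11 tested genes that control Csf1r transcription, 1 was called lower at 1 week, where 0.392% of all genes tested were. It was Maf (-2.22 ± 0.64, adjusted p = 0.0404). That call was kept in 11 of the 18 alternatives other than leaving out a mouse, and was lost without CKp25 mouse 2 or 3 or without any of the 3 CK mice of that week. No gene of this list was called at 2 or 6 weeks, and Irf8, highest by mean log2 level, differed by 0.39 ± 0.50 at 2 weeks. The list had median differences of 0.14, -0.13 and -0.21 at 1, 2 and 6 weeks. None of the 3 tested genes among the other CSF ligands and receptors was called (0 at each week).

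In the TGF-beta pathway, genes around the receptors moved in single cases. Of all genes tested 6.14% and 4.21% were called higher at 2 and 6 weeks, and 2.24% and 1.54% lower. At 2 and 6 weeks the median differences were -0.15 and -0.20 for ligands and activators, -0.21 and -0.20 for receptors and Smads, and -0.17 and -0.17 for feedback and co-regulator genes. Of 8 tested ligands and activators, Thbs1, an activator of latent TGF-beta, rose at 2 weeks (0.41 ± 0.11, adjusted p = 0.00867), a call that was lost without CKp25 mouse 3 or CK mouse 2 of that week. Itgb5, the integrin subunit with the highest level of the list, differed by -0.32 ± 0.49 at 2 weeks (adjusted p = 0.779). Nrros, which anchors TGF-beta 1 on microglia, differed by -0.09 ± 0.46 at 2 weeks and -0.31 ± 0.43 at 6 weeks, and neither passed. Of 11 tested receptors and Smads, the receptor Acvrl1 rose at 2 weeks (0.66 ± 0.18, adjusted p = 0.0152) and the co-receptor endoglin (Eng) fell at 6 weeks (-1.43 ± 0.42, adjusted p = 0.0307). Acvrl1 missed the threshold without CKp25 mouse 2, CK mouse 1 or CK mouse 3 of that week. Eng, whose groups overlapped, missed it without CKp25 mouse 1, 2 or 4 or CK mouse 2 or 3 of that week. Smad2 and Smad4, the partners of Smad3, were not called at any week. Of 12 tested feedback and co-regulator genes, the Smad co-repressor Tgif1 rose at 2 weeks (1.09 ± 0.36, adjusted p = 0.0478) and 6 weeks (1.48 ± 0.34, adjusted p = 0.00262). The call for Tgif1 at 2 weeks was kept in 8 of 25 fits that leave out a mouse. Pmepa1, an inhibitor induced by TGF-beta, fell at 2 weeks (-1.67 ± 0.39, adjusted p = 0.00332), except without CK mouse 2 of that week (adjusted p = 0.0542).

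Genes that TGF-beta induces or needs were described in a pair of lists. Of 8 tested Smad target genes from other tissues, 2, 3 and 2 rose at 1, 2 and 6 weeks and 0 fell, with medians of 0.30, -0.02 and 0.07. Of all genes tested 3.9%, 6.14% and 4.21% were called higher at these weeks. Cdkn1a, a cell cycle inhibitor, rose at 1 week (1.62 ± 0.32) and 2 weeks (1.73 ± 0.32). Id2 rose at 2 weeks (1.52 ± 0.36) and 6 weeks (1.32 ± 0.34), and the repressor Bhlhe40 rose at 2 weeks (0.64 ± 0.12) and 6 weeks (0.99 ± 0.12). With FPKM averaged in a mouse before the log2 was taken, Cdkn1a missed the threshold in limma at 1 and 2 weeks (adjusted p = 0.155 and 0.109). Id2 at 2 weeks missed it there as well (adjusted p = 0.120). The call for Id2 at 6 weeks was kept in 13 of the 18 alternatives other than leaving out a mouse, and was lost without CKp25 mouse 4 or CK mouse 3 of that week (adjusted p up to 0.131). Junb, the highest gene of that list, was not called and differed by -0.24 ± 0.91 at 2 weeks. Of 17 microglial genes known to depend on TGF-beta, 1, 11 and 10 were called lower at 1, 2 and 6 weeks and 0 were called higher. Of all genes tested 0.392%, 2.24% and 1.54% were called lower at these weeks. The median differences of the 17 genes were -1.04, -1.60 and -1.60, against 0.06, -0.00 and -0.04 over all genes tested, and 0.04 at 0 weeks. This list overlaps the homeostatic microglial genes, whose fall in these mice was known when it was drawn up. P2ry12, a receptor for nucleotides, differed by -1.66 ± 0.48, -3.20 ± 0.48 and -2.81 ± 0.45 at 1, 2 and 6 weeks. It was the gene called at 1 week, a call kept in 12 of the 18 alternatives other than leaving out a mouse and lost without CKp25 mouse 2 or 3 or any of the 3 CK mice of that week (adjusted p up to 0.206). The count of 1 at 1 week was 0 to 2 when a mouse was left out and 0 to 6 under the other alternatives. The level of P2ry12 at 2 weeks was 449 FPKM in CKp25 and 2346 FPKM in CK mice. P2ry13, a related nucleotide receptor, differed by -3.38 ± 0.51 and -2.65 ± 0.48 at 2 and 6 weeks, and the fructose transporter Slc2a5 by -3.24 ± 0.61 and -3.25 ± 0.57. The receptors Gpr56 and Gpr34 differed by -2.85 ± 0.49 and -2.37 ± 0.47 at 2 weeks and by -2.03 ± 0.46 and -2.03 ± 0.44 at 6 weeks, all past the threshold. Crybb1 differed by -2.66 ± 0.61 at 2 weeks and Golm1 by -2.06 ± 0.45 at 6 weeks. Sall1, a transcription factor of microglial identity, differed by -1.51 ± 0.45 at 2 weeks (adjusted p = 0.0272), and missed the threshold without CKp25 mouse 1 or 2 or CK mouse 1 of that week. The count of 11 at 2 weeks was 7 without CKp25 mouse 1 of that week. The 8 microglial markers of the identity check, 5 of which are in this list, summed to 82.7 in CKp25 and 91.9 in CK mice at 2 weeks and to 79.3 and 87.1 at 6 weeks.

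**Figure D5:**
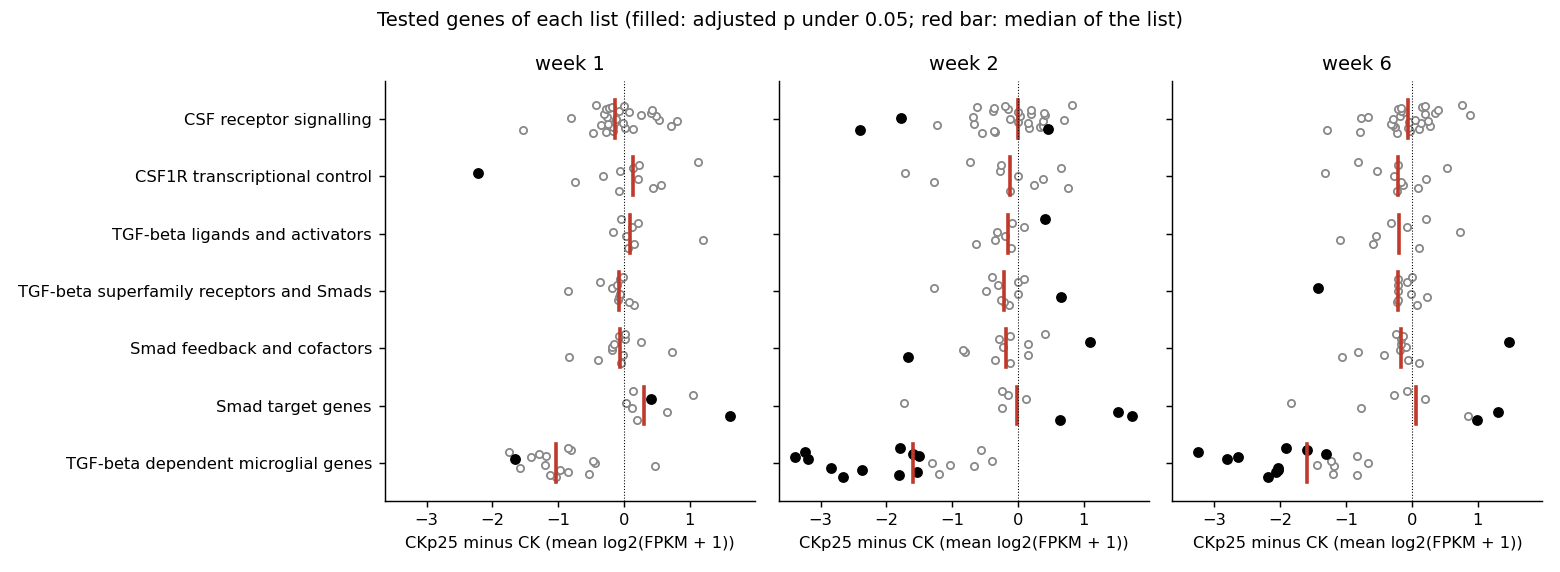
CKp25 minus CK difference of the mean log2(FPKM + 1) levels (x axis) for the tested genes of 7 pathway lists (y axis) at 1, 2 and 6 weeks. Points are genes, filled where the adjusted p was under 0.05 in limma, and red bars are the median of a list. The list of TGF-beta dependent microglial genes lies mostly left of 0 at 1 week and wholly left of 0 at 2 and 6 weeks, with medians of -1.04, -1.60 and -1.60.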

How the data were processed

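Single cells sorted from the hippocampus of 25 mice were profiled by Smart-seq2, a plate method that reads the whole transcript. The deposited values are FPKM per gene and well, made by the authors with Cufflinks 2.2 on the mouse build mm9, per the submitters' processing notes, which name no aligner. FPKM keep neither counts nor depth, and 7 wells carried a well number that another well of the same mouse also had.

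Wells with under 1000 genes at FPKM of 1 or more were left out (180 of 2208). Mice were the replicates, each with a profile of mean log2(FPKM + 1) values over the cells kept, and genes at FPKM of 1 or more in 10% of the cells of at least 3 mice were tested. limma 3.58.1 (R 4.3.3) with a trended, robust variance and 17 residual degrees of freedom was fitted to all 8 groups, with 2-sided p-values adjusted by Benjamini-Hochberg over 9435 genes. Interactions compared genotype effects between weeks. Shares of cells were compared by exact permutation. On data simulated for the comparison at 2 weeks over 9435 genes, 67% of 100 genes changed by 1 on the log2 scale and 95% of 100 changed by 2 were called, with 13 false calls. The changed genes were drawn at random. All groups otherwise had the same mean, with normal noise of the residual spread of each gene. These shares therefore do not give the chance of a call for a single member.

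Alternatives changed the pseudocount, scaling, filters, cells or model, or left out a mouse. The members and lists were chosen with earlier results of these data known, so no list has a test of its own. Genes named from a list are those past the threshold, up to 6 by smallest p per list and week, and the gene of highest level. Csf2rb2, Nrros, Smad2, Smad4, Sall1 and the untested ligands were added for their roles after their values were seen. Some genes that these rules would name are not reported here. Promoter sequences are those of RefSeq for GRCm38.p6.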

Additional observations from a re-analysis of the deposited data

Results flagged for a closer look

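The effect of genotype on Csf1 differed between weeks by the interaction test in limma. It was larger at 2 weeks than at 0 weeks by 2.35, larger at 6 weeks than at 0 weeks by 1.65, and larger at 2 weeks than at 1 week by 1.49 on the log2 scale. With FPKM averaged in a mouse before the log2 was taken, none of these differences passed the threshold. The ratio of mean FPKM, CKp25 over CK, was 8.72 at 1 week and 7.74 at 2 weeks.

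Within the 4 CKp25 mice at 6 weeks, 1 mouse stood apart from the other 3 in 2 of the 20 sets of 4 values looked at, where chance gives about 1 in 20. Mouse 3, with 52 kept cells, had a Tgfbr1 level of 4.99, against 6.11, 6.00 and 6.01 in the others. Mouse 1, with 41 kept cells, had Tgfb1 in 9.76% of its cells, lower than the other 3.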

How the results depend on the processing

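Csf1 at 2 and 6 weeks and Csf2ra at 2 weeks were called higher in CKp25 mice under each of the 18 alternatives other than leaving out a mouse (1.00 to 3.82, 0.72 to 2.63 and 1.16 to 3.24) and each of the 25 fits that leave out a mouse (2.1 to 2.53, 1.39 to 1.89 and 1.96 to 2.38). Of 6340 member results recomputed, 62 lost and 39 gained a call, and 0 of those called in either fit reversed. Changes of sign among results called in neither fit were not counted. Of the member results called or counted, only those below changed, and the cause was not tested. Calls of list genes changed as well, and not all of these changes are given. At 2 weeks the calls for Thbs1, Acvrl1, Sall1 and Tgif1 were kept in 13 of 17, 16 of 17, 15 of 18 and 10 of 18 alternatives other than leaving out a mouse.

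With FPKM averaged in a mouse before the log2 was taken (averaging first), Csf2ra at 6 weeks was 0.91, the excess of the Csf1 effect was 2.85 for 2 over 0 weeks, 2.45 for 6 over 0 weeks and 0.17 for 2 over 1 week, and Csf2ra in CKp25 mice differed from 0 weeks by 1.09 at 2 and 0.60 at 6 weeks. That scale moved the median of all genes to -0.35 at 2 weeks, -0.17 at 1 week and -0.18 at 6 weeks. With no filter on low genes, Csf2ra at 6 weeks was 1.65, the Csf1 excesses were 1.65 for 6 over 0 and 1.49 for 2 over 1 week, Csf1 in CKp25 mice at 1 week was 0.83 and Csf2ra at 6 weeks 1.61 over 0 weeks. Tgfbr1 at 6 against 0 weeks in CKp25 mice lost its call with a pseudocount of 0.1 (-1.51), wells of at least 2000 genes (-1.13), first wells or cells with other markers left out (both -1.32), monocyte-marker cells left out (-1.43) and the replicate block (-1.43). Csf1 at 1 against 0 weeks lost it with a pseudocount of 10 (0.37), rescaled FPKM (0.99, and 1.02 without ribosomal, small and mitochondrial RNA), first wells left out (0.81), monocyte-marker cells left out (0.79), quantile normalization (0.69), no trended variance (0.83) and genes per cell as a covariate (0.65). The Csf1 excess of 2 over 1 week lost it without monocyte-marker cells (1.57) and with no trended variance (1.49). Leaving out a mouse gave 0.72 to 0.99 for Csf1 at 1 against 0 weeks, 1.27 to 1.70 for its excess of 2 over 1 week, 1.32 to 2.21 for Csf2ra at 6 weeks, 1.28 to 2.17 for it against 0 weeks and -1.60 to -1.09 for Tgfbr1 against 0 weeks.

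Members called higher at 1 week numbered 1 in place of 0 with averaging first, with wells of at least 2000 genes, mouse weights, the replicate block, the covariate and a fit of that week alone. Members called lower at 2 weeks numbered 2 with quantile normalization and 1 with no trended variance or the covariate. At 6 weeks 1 was called higher with averaging first or with no filter. At 6 weeks 1 was called lower with averaging first, with both rescalings, mouse weights and the covariate, 2 with wells of at least 2000 genes or no trended variance, and 3 with quantile normalization. Leaving out a mouse gave 0 to 1 higher at 1 week, 1 to 2 higher and 0 to 1 lower at 6 weeks.

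Same-numbered mice of both genotypes correlated by -0.119 to 0.348, and 8 of 12 correlated best with their own number among the 3 compared. Whether the numbers pair mice is not known, and the main fit does not pair them. The replicate block is a term for each mouse number shared by all weeks, which is not a pairing within a week. With the replicate block, Csf1 passed at 1 week (0.83, adjusted p = 0.0306) and so did the Csf2ra excess of 2 over 0 weeks (2.05, adjusted p = 0.0213). Over all genes 579 were higher and 211 lower at 2 weeks, a share higher of 73.3%, against 187 and 173 (51.9%) with averaging first and 528 and 344 (60.6%) with quantile normalization. At 6 weeks 397 were higher and 145 lower (73.2%), against 290 and 184 (61.2%) and 531 and 357 (59.8%). At 1 week 368 were higher and 37 lower (90.9%), against 96 and 9 (91.4%) and 283 and 119 (70.4%). With no filter 4 genes were higher and 3 lower at 0 weeks.

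FPKM without counts, values listed at 0 and 3 or 4 mice a group limit these results. The depth of a cell, and changes of low genes on a scale with an added 1, could not be assessed.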
